A study of Mus musculus with 9 samples.

Results

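The genes described here are 30 mouse genes that mark or govern spermatogonia, the mitotic germ cells at the base of spermatogenesis. They were taken as a named list, put together with earlier results of these data known. For each gene, all peak intervals of 2 deposited lists, one of chromatin captured with Gm4665 probes and the other with LacZ control probes, were collected where they overlapped the annotated gene with 2 kb flanks on either side. All 30 genes were found among the 49599 RefSeq genes used, and their windows held 23 of 38711 Gm4665 intervals and 10 of 9448 LacZ intervals. Of the 30 genes, 13 held a Gm4665 interval, 8 held a LacZ interval, 5 held intervals of both lists and 14 held none of either. Among 20556 autosomal protein-coding genes, 40.7% held a Gm4665 interval, 17.6% a LacZ interval and 11.7% both. Holding neither was thus common among genes at large too, and nothing is read from the 14.

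Spermatogonial stem cells renew under glial cell line-derived neurotrophic factor (GDNF), a signal from Sertoli cells that acts through the receptor pair GFRA1 and RET and sustains transcription factors such as ID4, ETV5, BCL6B and LHX1. ZBTB16 and the RNA-binding protein NANOS2 hold the cells undifferentiated. Retinoic acid, through receptors that include RARG, then brings on KIT and STRA8, while SOHLH1, SOHLH2, DMRT1 and DMRTB1 control the passage from mitotic spermatogonium to meiosis.

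The chromatin came from germ cells of testes of wild-type ICR mice, an outbred strain, at postnatal day 35, and all samples share that strain, tissue and age. The samples form 3 groups of 3 replicates, titled for the captured RNA (LncRNA-20), LacZ and input; no treatment or altered genotype is given. The labels' protocol describes the same Gm4665 capture for every sample, so the groups rest on the titles, and that LncRNA-20 is Gm4665 was taken from that protocol. Whether replicates came from separate animals is not stated, so the spread between them may be technical. Day 35 testes hold germ cells of many stages, the lists hold DNA and no RNA, and the share of spermatogonia in the preparation could not be checked against markers; which cells gave an interval was not tested.

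Each interval has 1 linear fold enrichment over input in each replicate. The Gm4665 list had median folds of 11.4, 8.50 and 10.3 in replicates 1 to 3, and the LacZ list 23.0, 8.18 and 10.9. LacZ replicate 1 was the highest of the 3 in 95.9% of LacZ intervals and stands apart. The lists were normalized separately, so a fold is compared only within its own list. Gm4665 itself, on chromosome 9, lay in an interval with folds of 129, 101 and 120 and no LacZ interval within 10 kb. Because a single set of intervals serves all 3 replicates of a probe set, the presence of an interval has no replicate check and no test was made; counts are read beside the same count over all autosomal protein-coding genes, since all 30 genes are of that kind.

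Holding a Gm4665 interval was about as common among spermatogonial genes as among genes at large. The 13 genes with one are 43.3% of the 30, and 40.7% of 20556 autosomal protein-coding genes had one. Intervals accumulated with gene length. All 3 genes over 100 kb (Gfra1, Zbtb16 and Taf4b) held one, beside 92.8% of genes of that length. In the class of 20 to 100 kb 6 of 12 did, beside 55.7%, and under 20 kb 4 of 15 did, beside 19.9%. The 13 genes had a median length of 66.9 kb, and the 17 without a Gm4665 interval 15.9 kb. Density over the windows was 15.2 Gm4665 intervals per Mb, beside 17.1 per Mb over the windows of all autosomal protein-coding genes.

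The LacZ control marked 8 of the 30 genes (26.7%), beside 17.6% of autosomal protein-coding genes. By length these were 3 of 15 genes under 20 kb, beside 6.57%, 4 of 12 genes of 20 to 100 kb, beside 21.2%, and 1 of 3 genes over 100 kb, beside 58.8%. LacZ density was 6.63 intervals per Mb of the windows, beside 4.74 over all such genes. The 5 genes with both kinds of interval (Zbtb16, Dmrt1, Dmrtb1, Cdh1 and Dazl) are 16.7% of the 30, beside 11.7% of all. Put as a share of the 13 genes with a Gm4665 interval they are 38.5%, where 28.7% of all autosomal protein-coding genes with a Gm4665 interval also held a LacZ interval.

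**Figure D1:**
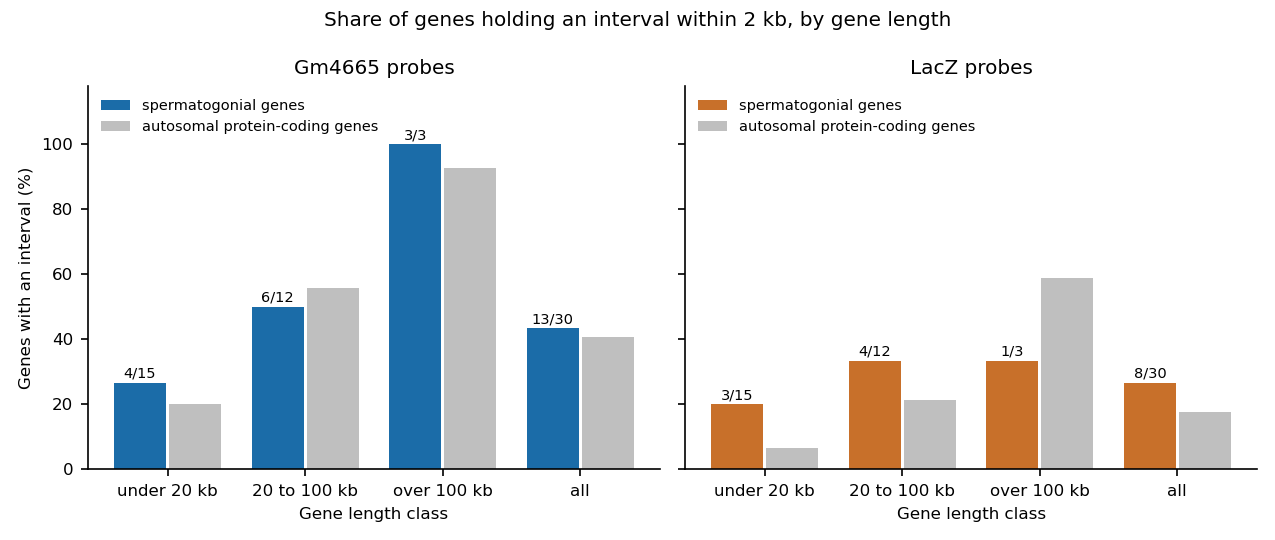
Percentage of genes with at least 1 interval in the gene with 2 kb flanks (vertical axis) by gene length class (horizontal axis), for Gm4665 probes (left, blue) and LacZ probes (right, orange); grey bars are autosomal protein-coding genes, and labels give spermatogonial genes with an interval over those in the class. Blue and grey bars rise together with length, from 4 of 15 and 19.9% under 20 kb to 3 of 3 and 92.8% over 100 kb.

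At gene ends, taken as 2 kb either side of each annotated edge, 5 of the 30 genes had a Gm4665 interval (16.7%, beside 14.7% of autosomal protein-coding genes). Among them were Pou5f1, Sohlh1, Sall4 and Foxo1, which encode transcription factors, and Dazl, which encodes an RNA-binding protein needed for germ cell development. LacZ intervals lay at the ends of 3 genes, Dazl, Lhx1 and Upp1 (10% of the 30, beside 4.96%). With windows of 1 kb either side, 2 genes had a Gm4665 interval at an end, beside 8.65% of autosomal protein-coding genes, and 1 had a LacZ interval, beside 3.10%. The remaining 18 Gm4665 and 7 LacZ intervals lay inside genes. This split was not counted over the intervals of all genes, so nothing is read from it.

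Foxo1 encodes a forkhead factor that stem cell maintenance requires. Its gene-end interval at chr3:52269632-52270686 had folds of 22.5, 20.7 and 21.8 in replicates 1, 2 and 3 (mean 21.7 ± 0.899, SD, n = 3), higher than 86.1% of the list by mean. The 3 values lay within a ratio of 1.09, and each was above its replicate's median. The interval began 1295 bp downstream of the transcription start in the RefSeq promoter table, inside the gene. No LacZ interval lay within 119036 bp of it.

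Pou5f1 encodes OCT4, a factor of pluripotent and early germ cells. The interval at chr17:35507093-35507805 had folds of 14.7, 8.22 and 10.2 (mean 11.03 ± 3.30, SD, n = 3), and only replicate 1 was above its list median. It lay between 2 annotated starts, 1061 bp after the first and 1002 bp before the second, and also within 2 kb of an end of the neighbouring gene Gm32362.

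At Dazl the 2 probe sets retrieved the same place. The Gm4665 interval at chr17:50293926-50295246 had folds of 4.76, 3.62 and 6.09 (mean 4.82 ± 1.24, SD, n = 3), below the list median in all 3 replicates and higher than 1.43% of the list. The LacZ interval at chr17:50293710-50295209 had folds of 10.5, 4.55 and 7.52 (mean 7.53 ± 2.99, SD, n = 3), likewise below its list's medians. They shared 1284 bp of the 1321 bp of the Gm4665 interval. Both lay upstream of the Dazl start, by 306 bp for Gm4665 and 90 bp for LacZ. This was the only overlap between the lists among the 23 Gm4665 intervals; over the whole list 0.889% of Gm4665 intervals overlapped a LacZ interval. The deposited list gives the Gm4665 interval on 2 rows that differ in replicate 3 (4.83 and 6.09), of which the higher was used.

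Promoters are shown for these 3 genes because their Gm4665 gene-end intervals lie beside an annotated start. Lhx1, whose only interval was a LacZ one 1064 bp from its start, is not shown. The promoter table had 29 entries for 22 of the 30 genes and none for Zbtb16, Dmrt1, Sall4, Taf4b, Ret, Bcl6b, Cdh1 and Ccnd2. No start of those 29 entries fell inside an interval of either list, so these 4 entries were chosen after the positions were seen. Sequences are RefSeq, build GRCm38.p6, each 300 bases from 250 before the start, 5′ to 3′ on the gene's strand; capitals mark matches, on either strand, to the 8 short motifs named after them.
Dazl, chr17:50293571-50293870, minus strand: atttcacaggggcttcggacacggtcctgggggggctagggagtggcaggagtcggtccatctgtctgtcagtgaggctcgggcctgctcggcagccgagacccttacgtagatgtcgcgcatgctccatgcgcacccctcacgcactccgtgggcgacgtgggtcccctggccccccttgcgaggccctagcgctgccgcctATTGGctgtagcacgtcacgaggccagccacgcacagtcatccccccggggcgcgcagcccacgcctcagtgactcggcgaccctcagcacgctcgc
Foxo1, chr3:52268087-52268386, plus strand: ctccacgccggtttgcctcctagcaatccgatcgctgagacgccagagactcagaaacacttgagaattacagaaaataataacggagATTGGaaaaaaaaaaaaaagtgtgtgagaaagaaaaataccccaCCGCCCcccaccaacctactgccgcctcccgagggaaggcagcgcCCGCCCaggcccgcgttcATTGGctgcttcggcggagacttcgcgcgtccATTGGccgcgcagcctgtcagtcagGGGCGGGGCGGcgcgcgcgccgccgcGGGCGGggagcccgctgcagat
Pou5f1 first start, chr17:35505782-35506081, plus strand: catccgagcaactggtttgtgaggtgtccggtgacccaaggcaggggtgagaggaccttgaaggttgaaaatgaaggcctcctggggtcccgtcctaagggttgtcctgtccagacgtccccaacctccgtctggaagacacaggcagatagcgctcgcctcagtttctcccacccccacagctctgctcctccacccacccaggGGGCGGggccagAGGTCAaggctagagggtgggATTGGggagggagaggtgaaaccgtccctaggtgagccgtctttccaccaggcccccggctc
Pou5f1 second start, chr17:35508557-35508856, plus strand: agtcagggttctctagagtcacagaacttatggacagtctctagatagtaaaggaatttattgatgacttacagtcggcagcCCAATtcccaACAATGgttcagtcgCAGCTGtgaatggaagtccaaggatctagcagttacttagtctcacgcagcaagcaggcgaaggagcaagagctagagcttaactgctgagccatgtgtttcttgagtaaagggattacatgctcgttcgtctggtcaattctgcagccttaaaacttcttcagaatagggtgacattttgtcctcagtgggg

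The LacZ interval reached 161 bp into the Dazl promoter entry, and the Gm4665 interval began 56 bp outside it. Foxo1 had 5 matches to GGGCGG, the GC box, of which those at bases 3 and 8, with the start counted as base 1, share a base, and 3 to CCAAT. Dazl had a CCAAT match on the opposite strand, 47 bases before its start. The first Pou5f1 start had GGGCGG 45 bases before it and AGGTCA, part of a nuclear receptor element, 33 bases before it. It also had a CCAAT match on the opposite strand, 12 bases before it. The second had a match to CAGCTG 143 bases before it, as well as one to each of 2 further motifs, CCAAT at 168 bases and then ACAATG at 158 bases before it. Over the 29 entries, some of which overlap each other, GGGCGG was found in 16 and CCAAT in 14, beside 35.7% and 37.4% of all 32851 entries of the same length. CACCTG was found in 4, CAGCTG in 8 and CACGTG in 1 (the E-box forms; 20.2%, 16.3% and 7.15% of all entries). AGGTCA was found in 7, ACAATG in 4 and TATAAA in 1 (16.3%, 12.6% and 13.6% of all). Median GC content was 61.3% over these entries and 52.7% over all. A match is a description of the letters and not evidence of a bound site.

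The other gene-end intervals of the Gm4665 probes lay at Sall4 and Sohlh1. Sall4 encodes a zinc finger factor of undifferentiated spermatogonia, and its interval at chr2:168765365-168766160 had folds of 20.8, 13.3 and 17.6 (mean 17.2 ± 3.78, SD, n = 3), above the list median in all 3 replicates. It lay 1041 bp inside the higher-coordinate edge and also at an end of Gm14261. Sall4 had no promoter entry and so no strand here, and whether this edge is its start was not determined. A second Sall4 interval, 6518 bp away at chr2:168758535-168758846, was the weakest of the 23, with folds of 3.80, 5.39 and 4.81 (mean 4.67 ± 0.808, SD, n = 3). Sohlh1 encodes a basic helix-loop-helix factor of differentiating spermatogonia. Its interval at chr2:25842639-25843602 crossed the 3′ edge of the gene, 3646 bp downstream of the start, with folds of 17.2, 12.2 and 8.64 (mean 12.7 ± 4.28, SD, n = 3). Replicate 3 was below its list median there, and replicates 1 and 2 were above theirs.

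Among all 30 genes the strongest interval of each list lay inside Zbtb16, which encodes the zinc finger repressor PLZF that keeps stem cells undifferentiated. The Gm4665 interval at chr9:48747342-48749118 had folds of 65.6, 53.4 and 61.3 (mean 60.1 ± 6.20, SD, n = 3). Each was above at least 99.5% of the folds of its replicate. Of autosomal protein-coding genes over 100 kb, 1.47% held an interval of this mean fold or higher, a comparison made after the value was seen. Its neighbour 12172 bp away, at chr9:48734786-48735169, had 9.27, 13.9 and 9.46 (mean 10.9 ± 2.65, SD, n = 3). Only its replicate 2 was above the list median.

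LacZ probes also gave a strong Zbtb16 interval, at another place. At chr9:48693772-48695242, 52100 bp from the strong Gm4665 interval, LacZ folds were 76.0, 19.003 and 39.3 (mean 44.8 ± 28.9, SD, n = 3), higher than 98.95% of the LacZ list by mean. Replicate 1 was the highest and replicate 2 the lowest, and without replicate 1 the mean was 29.1. A weak LacZ interval at chr9:48653912-48654156 had folds of 5.10, 5.91 and 5.57 (mean 5.52 ± 0.409, SD, n = 3). The 4 Zbtb16 intervals did not overlap.

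Foxo1 held 5 Gm4665 intervals, the most of any of the 30 genes, and no LacZ interval. Of the 7236 autosomal protein-coding genes of 20 to 100 kb, 0.428% held 5 or more. Foxo1, of 81.8 kb, was singled out after its count was seen. It is in the upper part of that length class, and the share among genes of its own length was not counted. Beyond the gene-end interval, 4 lay from 2829 bp to 69104 bp downstream of the start. The second interval, 479 bp from the first at chr3:52271166-52271595, had folds of 9.55, 9.18 and 10.7 (mean 9.81 ± 0.787, SD, n = 3). The third, at chr3:52302123-52302652, had 9.55, 5.10 and 15.2, the widest spread of the 23 Gm4665 intervals (ratio 2.98). The fourth, at chr3:52330901-52331423, had 13.2, 6.56 and 12.03, and the fifth, at chr3:52337441-52338235, had 17.1, 12.2 and 16.04 (mean 15.1 ± 2.54, SD, n = 3). The first and the fifth were above the list median in all 3 replicates; the other 3 were not.

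Dmrt1 and Dmrtb1 encode related DM-domain factors that control the entry of spermatogonia into meiosis, and each held intervals of both lists. In Dmrt1 the stronger Gm4665 interval, at chr19:25575281-25576282, had folds of 26.5, 20.4 and 20.9 (mean 22.6 ± 3.35, SD, n = 3), above the list median in all replicates. A LacZ interval lay 3397 bp away, at chr19:25570703-25571884, with folds of 39.8, 11.3 and 13.5 (mean 21.5 ± 15.9, SD, n = 3; 12.4 without replicate 1). The weaker Gm4665 interval, at chr19:25547861-25548412, had folds of 6.51, 6.59 and 8.21. It too had a LacZ interval near it, 4602 bp away at chr19:25542931-25543259, with 13.3, 4.09 and 8.65. In Dmrt1, then, the stronger interval of each list stood near the stronger of the other, without overlap.

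In Dmrtb1 the LacZ interval was the stronger within its list. It lay at chr4:107679024-107680101, with folds of 48.99, 10.1 and 18.2 (mean 25.7 ± 20.5, SD, n = 3; 14.1 without replicate 1), higher than 87.9% of the LacZ list. The Gm4665 interval at chr4:107691962-107692256, 11861 bp away, had 5.80, 4.76 and 4.93 (mean 5.16 ± 0.554, SD, n = 3), higher than 2.95% of its list. At 295 bp it was the narrowest of the 23 Gm4665 intervals. It lay 7732 bp upstream of the nearer annotated start, within the longer Dmrtb1 span and within 1700047F07Rik. Pax7, whose product marks a rare class of spermatogonia, held 1 Gm4665 interval, at chr4:139751922-139752621, with folds of 9.22, 8.84 and 8.78 (mean 8.95 ± 0.239, SD, n = 3). Those 3 folds were the closest together of any of the 23 Gm4665 intervals, with a ratio of 1.05.

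**Figure D2:**
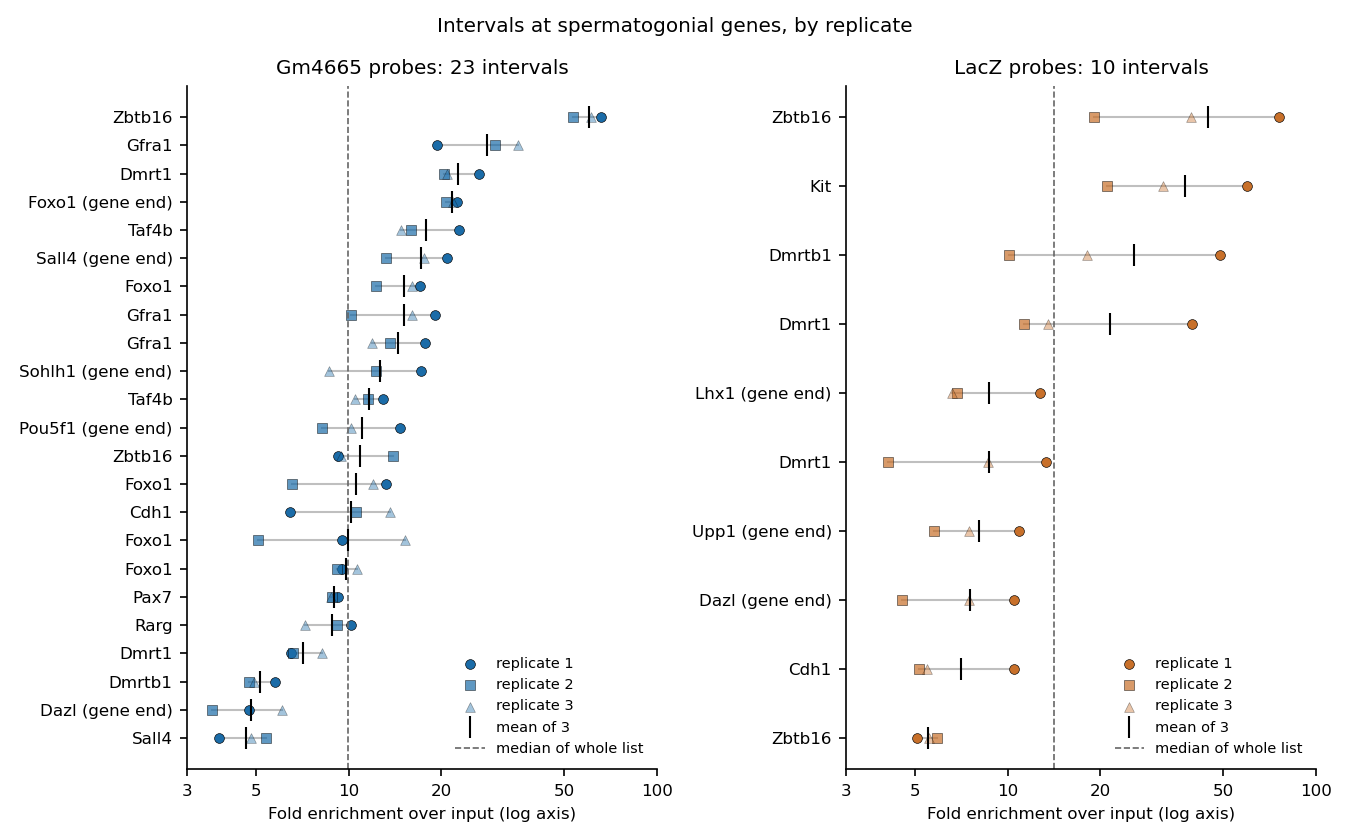
Fold enrichment over input (log axis) of each interval, named by its gene, for Gm4665 probes (left) and LacZ probes (right); circles, squares and triangles are replicates 1, 2 and 3, the black tick is their mean, the grey bar their range and the dashed line the median mean fold of the whole list. The Zbtb16 interval leads both panels, at 60.1 and 44.8, and circles of LacZ replicate 1 lie to the right in 9 of 10 rows.

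Of the 4 receptor genes, Gfra1 and Rarg held Gm4665 intervals, Kit held only a LacZ interval and Ret held none. Gfra1 encodes the GDNF co-receptor that marks stem cells and is the longest of the 30 genes at 220 kb. Its 3 intervals all lay inside the gene and all exceeded the list median in every replicate. The strongest, at chr19:58360169-58361381, had folds of 19.3, 29.9 and 35.4 (mean 28.2 ± 8.17, SD, n = 3), higher than 92.5% of the list. Those at chr19:58324923-58325656 and chr19:58426007-58426741 had folds of 17.7, 13.6 and 11.9, and of 19.1, 10.2 and 16.04. The nearest LacZ interval to any of them was 88307 bp away. No Gfra1 interval was near its start; the closest was 28657 bp downstream.

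Rarg, the retinoic acid receptor gene of differentiating spermatogonia, held an interval at chr15:102243208-102243635 with folds of 10.2, 9.18 and 7.20 (mean 8.85 ± 1.51, SD, n = 3). It lay 2865 bp downstream of the nearer of 2 annotated starts, and only replicate 2 was above its list median. Kit encodes the stem cell factor receptor, gained on differentiation. Its LacZ interval at chr5:75634955-75636365 had folds of 59.7, 20.9 and 31.9 (mean 37.5 ± 19.99, SD, n = 3), higher than 97.0% of the LacZ list. Without replicate 1 that mean was 26.4. The nearest Gm4665 interval to the Kit window, 58.8 kb away, had a mean fold of 8.67 ± 2.55 (SD, n = 3).

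Of the 4 RNA-binding protein genes, Nanos2, Nanos3 and Lin28a held none of either list, while Dazl held the overlapping pair described above. The 4 genes are short, from 1.44 kb at Nanos2 to 15.9 kb at Lin28a. Of the 7 remaining genes, Taf4b, which encodes a germ cell subunit of the general transcription factor TFIID, held 2 Gm4665 intervals. Their folds were 22.8, 15.99 and 14.8 (mean 17.9 ± 4.33) and 13.0, 11.6 and 10.5 (mean 11.7 ± 1.24; SD, n = 3 each), above the list median in all replicates. Both lay more than 50 kb inside the gene, and the nearest LacZ interval was 185308 bp away. Cdh1, the E-cadherin gene, held a Gm4665 interval at chr8:106661050-106661623 with folds of 6.44, 10.5 and 13.6. Its LacZ interval at chr8:106616522-106617025, 44025 bp away, had 10.5, 5.17 and 5.46 and was higher than 3.45% of the LacZ list.

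Upp1, a uridine phosphorylase gene used as a stem cell marker, and Lhx1, a GDNF-responsive homeobox gene, had LacZ intervals at a gene end and no Gm4665 interval. The Upp1 interval lay 1451 bp inside the 3′ edge, at chr11:9134229-9134719, with folds of 10.9, 5.76 and 7.497 (mean 8.06 ± 2.63, SD, n = 3). The Lhx1 interval lay 1064 bp upstream of the start, at chr11:84526598-84526931 and within the antisense neighbour Lhx1os, with 12.7, 6.84 and 6.60 (mean 8.73 ± 3.48, SD, n = 3). All 6 of these folds were below their LacZ list medians. Stra8, Uchl1, Ccnd2 and Tspan8 held no interval of either list, nor did the transcription factor genes Id4, Etv5, Sohlh2, Bcl6b, Eomes and Neurog3.

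**Figure D3:**
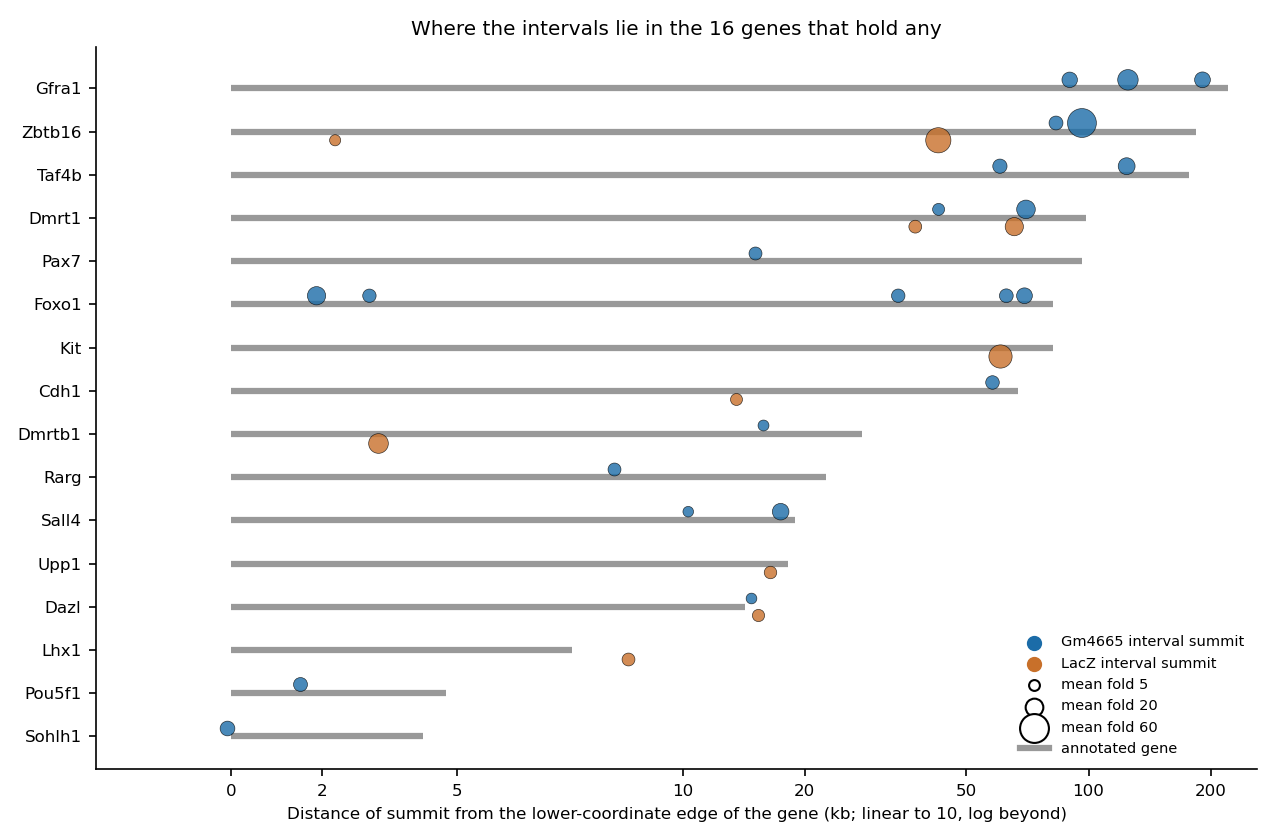
Position of interval summits along the 16 genes that hold any, as distance from the lower-coordinate edge of the gene (kb, linear to 10 and logarithmic beyond); grey bars are the annotated genes, blue and orange circles are Gm4665 and LacZ intervals, and circle area grows with mean fold. More than 2 kb inside the gene edges lie 18 of 23 Gm4665 and 7 of 10 LacZ intervals, a split not counted over all genes. The lists overlap only at Dazl, by interval span and not by the circles, which mark summits.

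As a set, the 23 Gm4665 intervals lay close to their list. Their median folds were 13.2, 10.5 and 11.9 in replicates 1 to 3 (mean 11.9 ± 1.33, SD, n = 3), beside 11.4, 8.50 and 10.3 over all Gm4665 intervals. By mean fold 15 of 23 exceeded the list median, 2 were in the top 10% (Zbtb16 and Gfra1) and 3 in the lowest 10% (Dmrtb1, Dazl and Sall4). Within an interval the highest replicate was a median of 1.49 times the lowest, beside 1.53 over the list. Widths ran from 295 to 1777 bp with a median of 734 bp, beside 582 bp for the list. LacZ intervals at these genes had median folds of 13.0, 6.38 and 8.08 (mean 9.17 ± 3.46, SD, n = 3), beside 23.0, 8.18 and 10.9 over the list (mean 14.0). That order depended on the flanks: over intervals that overlap the genes themselves, the LacZ mean was 15.2. The 4 at Zbtb16, Kit, Dmrtb1 and Dmrt1 were above the list median in all 3 replicates, and the other 6 were below it in all 3.

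Depth is known through the deposited pileup, the read coverage at the summit, which follows replicate 1: 47.6% of Gm4665 intervals had the replicate 1 fold over pileup plus 1 at its highest value, within 0.0005 as a fraction, against 0.00258% for replicates 2 and 3. Pileup at the Gm4665 intervals of these genes ran from 16 at Dmrtb1 to 212 at Zbtb16. Counting error alone gives a 95% exact Poisson interval of 9.15 to 26.0 at the first and 184 to 243 at the second. The weak intervals of Sall4 (pileup 17) and Dazl (18) had similarly low pileup. Since pileup follows replicate 1, coverage of these intervals in replicates 2 and 3 is not known.

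Of the 17 genes without a Gm4665 interval, 3 (Lhx1, Ret and Id4) had one within 10 kb of the window whose mean fold was at least that of the interval beside Lhx1, 22.4. Among the 12187 autosomal protein-coding genes without an interval, 4.11% had such a neighbour; this fold was set after the 3 genes were seen, so nothing is read from the difference. Nearest was Lhx1, with an interval 2871 bp from the gene at chr11:84528405-84529515, inside Lhx1os, with folds of 28.0, 20.7 and 18.4 (mean 22.4 ± 5.06, SD, n = 3). It lay 1474 bp from the Lhx1 LacZ interval, which fell within the window. Next came Etv5, a GDNF-induced factor gene, with an interval 5.05 kb from the gene and folds of 5.06, 4.49 and 5.31. Ret, the signalling receptor of GDNF, had an interval 8.62 kb from the gene at chr6:118206364-118207724, with folds of 33.2, 31.0 and 26.2 (mean 30.1 ± 3.54, SD, n = 3), higher than 93.7% of the list.

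The strongest of these neighbours lay 11.5 kb from Id4, whose product is a helix-loop-helix inhibitor found in stem cells. At chr13:48277497-48279864 its folds were 66.5, 52.7 and 57.2 (mean 58.8 ± 7.03, SD, n = 3), higher than 99.6% of the list and close to the Zbtb16 interval. Over the 17 genes the distance from window to nearest Gm4665 interval had a median of 16.1 kb and quartiles of 7.84 and 35.9 kb, from 0.871 kb at Lhx1 to 75.4 kb at Sohlh2. The 12187 autosomal protein-coding genes without an interval had a median of 20.1 kb and quartiles of 8.44 and 41.5 kb. The distances of the spermatogonial genes thus lay in the same range, and the strong neighbours of Id4, Ret and Lhx1 were singled out after their folds were seen.

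**Figure D4:**
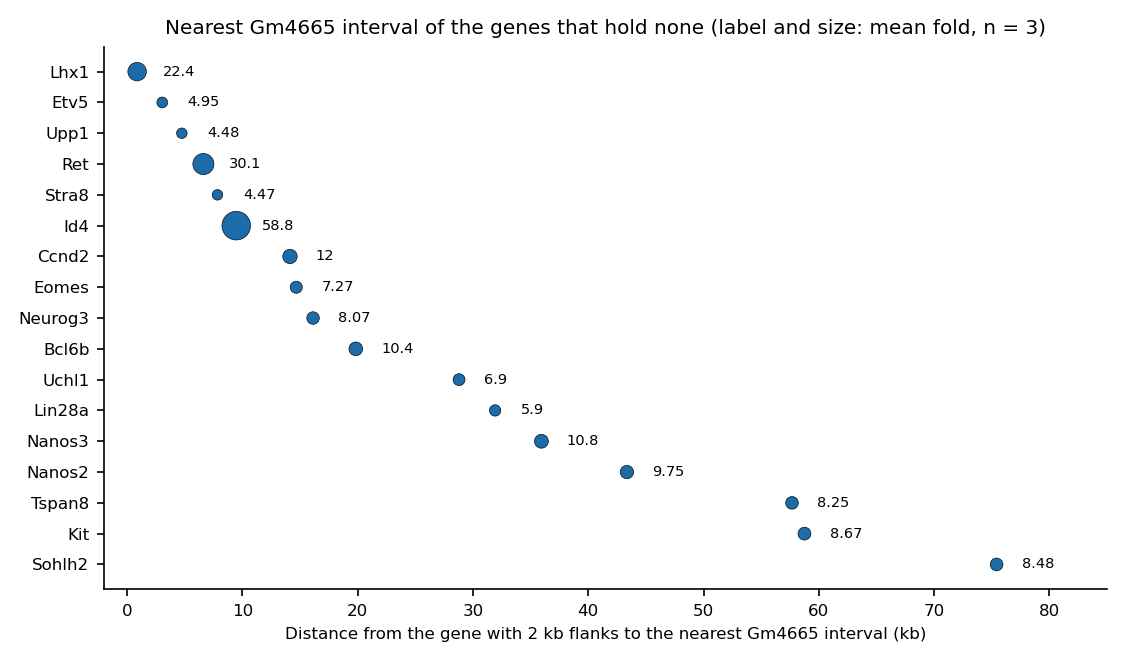
Distance in kb from the gene with 2 kb flanks to the nearest Gm4665 interval (horizontal axis) for the 17 genes that hold none; circle size and the printed label give the mean fold over 3 replicates. Lhx1 (22.4), Ret (30.1) and Id4 (58.8) have the strongest neighbours, all within 10 kb of the window.

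Other genes of the same pathways were counted in the same way. Of 91 listed symbols, Daz2 and Meiosin were not found. The counts are over 90 gene entries, so a symbol was matched more than once. Of these entries 47 (52.2%) held a Gm4665 interval and 22 (24.4%) a LacZ interval, beside 40.7% and 17.6% of autosomal protein-coding genes. Their median length was 23.7 kb, beside 17.6 kb. At gene ends 14 (15.6%) had a Gm4665 interval, beside 14.7%, and 2 (2.22%) had a LacZ interval, beside 4.96%. Genes of GDNF and fibroblast growth factor signalling, with a median length of 45.1 kb, held a Gm4665 interval in 16 of 24 (66.7%). That stands beside 40.7% of all autosomal protein-coding genes and 55.7% of those of 20 to 100 kb. The pathway groups were not matched for length. Among gene-end intervals of the GDNF and fibroblast growth factor genes, that of the receptor gene Fgfr2 had folds of 15.5, 12.8 and 21.3 (mean 16.5 ± 4.33, SD, n = 3).

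Retinoic acid genes held a Gm4665 interval in 9 of 21 (42.9%, beside the same 40.7%). Rdh11, which encodes a retinol dehydrogenase, had gene-end folds of 43.7, 24.5 and 26.2 (mean 31.5 ± 10.6, SD, n = 3), and Cyp26b1, which encodes an enzyme that degrades retinoic acid, had 15.5, 10.6 and 15.2. Niche and surface protein genes, with a median length of 22.9 kb, held a Gm4665 interval in 9 of 15 (60%). That stands beside the same 40.7% and beside 55.7% of autosomal protein-coding genes of 20 to 100 kb. In this group Cxcr4, a chemokine receptor gene, had gene-end folds of 34.4, 24.1 and 19.7. Paralogues and partners of the 30 genes held a Gm4665 interval in 13 of 30 entries (43.3%). A LacZ interval was held by 11 of these 30 entries (36.7%, beside 17.6% of autosomal protein-coding genes). The GDNF and fibroblast growth factor group held one in 4 of 24 genes (16.7%). The retinoic acid group did so in 5 of 21 (23.8%) and the niche and surface protein group in 2 of 15 (13.3%). In the same order, these groups had a Gm4665 interval at a gene end in 5 of 24, 4 of 21 and 3 of 15 genes. At gene ends 2 of the 30 paralogue and partner entries had a Gm4665 interval (6.67%, beside 14.7% of autosomal protein-coding genes). Both intervals were strong. That of Neurog1, a paralogue of Neurog3, had folds of 55.4, 46.7 and 46.9 (mean 49.7 ± 4.93, SD, n = 3). That of Foxo3, a paralogue of Foxo1, had 42.0, 34.4 and 29.5 (mean 35.3 ± 6.33, SD, n = 3).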

How the data were processed

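DNA captured with Gm4665 or LacZ probes from mouse germ cells was compared with input in 3 replicates each. The authors deposited 1 peak list per probe set, which the file names credit to MACS2; its version and settings, the aligner and how replicates were joined were not given in the sources used here. Per the file headers, each deposited row holds an interval, a pileup signal and 3 fold enrichments, which are linear ratios over input. Coordinates are on mm10, according to the submitters' processing notes. Rows repeating an interval (649 Gm4665, 165 LacZ) were joined, keeping the highest fold per replicate, and 116 and 25 intervals off chromosomes 1 to 19, X and Y were left out.

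Genes came from RefSeq GRCm38.p6, without exons; entries starting below 3 Mb outside Y were left out. Strand came from the RefSeq promoter table. An overlap of 1 bp counted. Percentile ranks are within a list. Overlap code was tested on simulated intervals (Python 3.11.15, pandas 2.3.3). The 30 genes and the pathway lists were chosen with earlier results of these data known. Values are given in full for gene-end intervals, the 5 strongest Gm4665 and 3 strongest LacZ intervals and genes with both, by a fixed rule; other intervals were added. A pathway gene that the rule would name is not reported here. Alternatives covered flanks, fold minimums, midpoints, list length, list overlap, end windows, replicates and repeated rows.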

Additional observations from a re-analysis of the deposited data

How the results depend on the processing

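Of 49 recounts of genes and intervals under alternative settings, 38 stayed within 1.5 times the reported count. Where every replicate had to reach a fold of 8, 9 genes kept a Gm4665 interval (beside 26.0% of autosomal protein-coding genes), Gm4665 intervals fell to 15, LacZ intervals and genes to 4 each (beside 10.1%), genes with both to 2 (5.57%), and LacZ gene ends to 0 (2.61%). With the Gm4665 list reduced to the length of the LacZ list, 6 genes with 6 intervals remained (beside 16.1%), 2 of them at gene ends (4.07%) and 2 with LacZ intervals as well (6.05%). With 1 kb end windows, 2 genes had a Gm4665 (8.65%) and 1 a LacZ interval (3.10%) at a gene end. In these settings fewer intervals or bases were searched. Without flanks the median LacZ fold was 15.2 rather than 9.17, since gene-end intervals outside the span left the set. Leaving out each replicate in turn, that median was 7.23 to 10.6, and the Gm4665 one 11.2 to 12.6. Without replicate 1, mean folds of LacZ intervals fell from 25.7 to 14.1 at Dmrtb1 and from 21.5 to 12.4 at Dmrt1. They also fell from 44.8 to 29.1 at Zbtb16 and from 37.5 to 26.4 at Kit. No paired analysis was possible because no result comes from a test across samples: each list has 1 set of intervals for its 3 replicates. For the same reason, intervals could not be called again without a replicate, and library read totals were not used here.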
